A study of Mus musculus with 12 samples.

Results

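F-box proteins of the Fbxl, Fbxo and Fbxw classes were followed in mouse oocytes with and without Lsm14b. The members were all genes whose symbol begins with Fbxl, Fbxo or Fbxw and a number, leaving out Fbxo5 and Fbxo43, which encode inhibitors of the anaphase-promoting complex. This gave 73 of the 23210 genes listed at either stage. Of these, 71 were listed at metaphase II (19 Fbxl, 28 Fbxo and 24 Fbxw), among 22801 genes. At the germinal vesicle stage 6 were listed (2 Fbxl, 4 Fbxo and no Fbxw), in a table of 3475 genes that the authors had selected for a difference between genotypes, so a gene that is missing there was not selected. Fbxo33 and Fbxo48 occurred only in the germinal vesicle table and are not analysed here at metaphase II. By the GENCODE M21 annotation 71 of the 73 encode proteins. Fbxl12os is an antisense RNA that shares the name pattern, and Fbxw23 is a transcribed pseudogene.

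RNA came from pools of 15 oocytes of C57BL/6 mice on postnatal day 35. Control oocytes (WT) were Lsm14b fl/fl, and conditional knockout oocytes (CKO) carried the same floxed alleles with Gdf9-Cre, a recombinase driven by an oocyte promoter from early follicles on. Both genotypes therefore shared the floxed alleles, and the Cre was present in the CKO alone, so an effect of the Cre and one of the lost gene cannot be told apart. There were 3 libraries per genotype from germinal vesicle oocytes (GV), still in prophase arrest, and 3 from mature eggs at metaphase II (MII), in 4 groups. LSM14B is an RNA-binding protein of cytoplasmic ribonucleoprotein granules. The labels call the replicates biological, but do not say whether pools came from separate mice, so p-values measure the spread between these pools.

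An SCF ubiquitin ligase is built from SKP1, the scaffold CUL1 and the RING protein RBX1, and its exchangeable F-box protein decides what is ubiquitinated. The F-box itself binds SKP1. The rest of the protein holds the substrate, through WD repeats in the Fbxw class, leucine-rich repeats in the Fbxl class and various other domains in the Fbxo class. In oocytes, timed protein degradation governs entry into and exit from meiotic divisions. Maturing oocytes do so without new transcription and draw on stored mRNA. The mouse genome also holds a run of Fbxw genes known mainly from oocytes, whose substrates are largely unknown.

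That run carries the largest set of near copies, and its sequences are shown first because they decide which values can be read gene by gene. Between Fbxw21 and Fbxw27 on chromosome 9, 15 Fbxw genes follow each other on the minus strand with no other protein-coding gene between them (Fbxw13 to Fbxw28, except Fbxw17). Of the 15, 14 are protein coding. They are called the array below, a definition by position that was made after the annotation was read. Fbxw17 lies on chromosome 13, and its coding sequence matched those of the array at only 52.9% to 54.8% of aligned bases. Within the array the 91 pairs matched at 79.0% to 99.1%, with a median of 83.7%. The first 120 coding bases of 5 array genes, read from GENCODE M21, are given here with capitals where a gene differs from Fbxw14.
Fbxw14: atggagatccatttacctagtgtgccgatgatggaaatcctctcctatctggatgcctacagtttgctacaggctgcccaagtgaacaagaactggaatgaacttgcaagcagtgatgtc
Fbxw28: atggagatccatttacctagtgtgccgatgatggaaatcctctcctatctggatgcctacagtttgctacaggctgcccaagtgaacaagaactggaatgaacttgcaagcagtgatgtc
Fbxw22: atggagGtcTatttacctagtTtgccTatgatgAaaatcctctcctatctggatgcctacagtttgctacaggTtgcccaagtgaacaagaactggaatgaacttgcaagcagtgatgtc
Fbxw19: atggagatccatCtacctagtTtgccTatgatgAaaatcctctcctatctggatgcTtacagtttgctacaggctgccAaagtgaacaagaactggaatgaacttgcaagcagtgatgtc
Fbxw24: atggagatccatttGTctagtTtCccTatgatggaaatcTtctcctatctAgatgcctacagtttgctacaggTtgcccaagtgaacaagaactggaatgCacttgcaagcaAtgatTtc
Fbxw14 and Fbxw28 were the same over these bases, Fbxw22 and Fbxw19 differed from them at 6 bases each, and Fbxw24 differed at 11. Over the whole coding sequence of 1398 bases Fbxw14 and Fbxw28 differed at 13. Coding bases 803 to 922 hold 4 of those 13, in capitals.
Fbxw14: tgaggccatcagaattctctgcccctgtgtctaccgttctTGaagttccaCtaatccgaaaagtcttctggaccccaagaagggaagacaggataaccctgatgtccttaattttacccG
Fbxw28: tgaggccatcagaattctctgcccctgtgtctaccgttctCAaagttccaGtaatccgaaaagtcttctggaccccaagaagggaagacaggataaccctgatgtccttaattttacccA
A read that falls on the lower-case stretches of this pair cannot be given to one of them. Of all 100-base windows, 46.9% of those in Fbxw14 and 46.9% of those in Fbxw28 occurred unchanged in another array gene, against 0% to 3.93% in the other 12 coding members. With 50-base windows these shares were 71.3% and 68.1%, against 6.15% to 16.3%. How the authors treated reads that match more than one gene is not given in the sources used here. The split between Fbxw14 and Fbxw28 is therefore uncertain, and their sum is given as well.

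**Figure D1:**
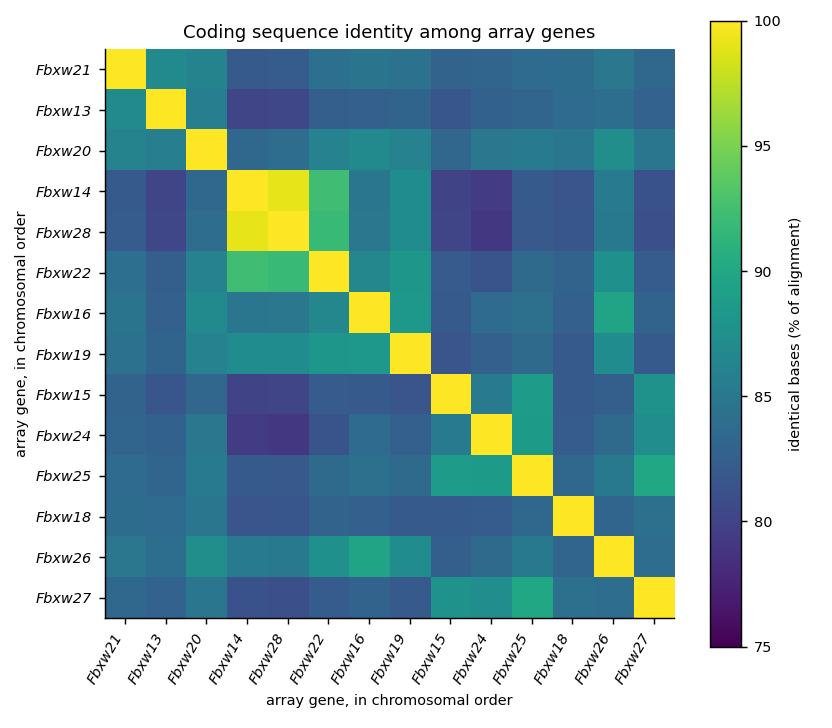
Coding sequence identity, in percent of aligned bases, between each pair of the 14 protein-coding array genes, in chromosomal order on both axes. Fbxw14, Fbxw28 and Fbxw22 form the brightest block, with 99.1% for the first pair, and no pair falls below 79.0%.

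The stretches before the transcription starts of the array genes were also near copies. RefSeq promoters (GRCm38.p6) were available for 11 of the 14 coding array genes, and for 55 members in all. Pairs of these 300-base windows aligned over at least 253 bases and matched at 83.9% to 97.7% of them (median 91.2%). The 150 bases before the RefSeq start are printed for Fbxw14 and Fbxw28, whose values lay higher in every CKO library at MII, for Fbxw24, by far the most abundant, for Fbxw16, whose genotypes overlapped, and for Fbxw20. Capitals mark the sextet CAGCTG and the run TTTAAAA, which were picked after the sequences were seen.
Fbxw14 (chr9:109287677-109287826, minus strand): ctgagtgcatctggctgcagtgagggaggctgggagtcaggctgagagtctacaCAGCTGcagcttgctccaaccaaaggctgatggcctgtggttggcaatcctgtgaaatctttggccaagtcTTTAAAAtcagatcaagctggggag
Fbxw28 (chr9:109339660-109339809, minus strand): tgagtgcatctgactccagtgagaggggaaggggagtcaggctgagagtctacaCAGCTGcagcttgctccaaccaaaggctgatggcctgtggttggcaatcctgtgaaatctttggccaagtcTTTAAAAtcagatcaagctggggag
Fbxw24 (chr9:109626060-109626209, minus strand): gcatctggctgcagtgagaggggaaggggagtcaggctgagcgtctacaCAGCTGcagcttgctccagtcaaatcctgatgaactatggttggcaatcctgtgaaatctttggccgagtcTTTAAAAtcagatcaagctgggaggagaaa
Fbxw16 (chr9:109449141-109449290, minus strand): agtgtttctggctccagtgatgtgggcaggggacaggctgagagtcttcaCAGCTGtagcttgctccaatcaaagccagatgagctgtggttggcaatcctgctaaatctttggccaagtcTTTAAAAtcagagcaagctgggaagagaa
Fbxw20 (chr9:109234755-109234904, minus strand): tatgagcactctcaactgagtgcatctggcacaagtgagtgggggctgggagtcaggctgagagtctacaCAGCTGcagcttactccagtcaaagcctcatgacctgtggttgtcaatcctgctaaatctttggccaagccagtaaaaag
CAGCTG is its own reverse complement and is one form of the E-box CANNTG, which FIGLA and other basic helix-loop-helix factors bind. It was found in 11 of 11 array promoters and in 16.3% of all 32851 RefSeq promoters of that length. CANNTG in any form was in 11 of 11 and in 72.3% of all. TTTAAAA, read on both strands, was in 10 of 11, all but Fbxw20, and in 8.74% of all. TATAAA, read on both strands, was in 0 of 11 and in 13.6% of all. Since these promoters are near copies of each other, the matches are not 11 separate observations.

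The libraries bear on every value that follows. At MII the tables held 88494525 to 124872889 reads in WT and 23077585 to 40530314 in CKO, so every control was deeper than every knockout. Lsm14b itself read 10643 to 11641 normalized counts in WT and 822 to 982 in CKO at MII, and 18816 to 30132 against 1273 to 1601 at GV. WT replicate 3 at MII stood apart, where Spearman's rho over genes was 0.834 to 0.885 against each other library and 0.907 to 0.965 within the other 5. All 12 oocyte markers were present at MII, with summed levels of 957721 to 1044946 in WT and 1197837 to 1449390 in CKO. Among them 5 lay higher in every CKO library and 1 lower (Bmp15), where 10.4% and 12.0% of all genes tested did so. The median difference of these markers was 0.55. Nobox alone passed the limma threshold, higher in CKO (difference 2.02, limma adjusted p = 0.0336). Of 16 cumulus and granulosa markers 12 were listed, at summed levels of 2668 to 5244 in WT and 3228 to 4453 in CKO, with Amh, Inha, Has2, Lhcgr and Fst at or near 0, Cyp19a1 at 354 to 3071 over both genotypes, and Foxl2 and Amhr2 not listed. Of the 11 that could be tested 4 lay higher in every CKO library and none lower, beside 10.4% and 12.0% of all genes, with a median difference of 0.58. The 4 were Nr5a2 (1572 to 1834 in WT, 2298 to 2865 in CKO), Fshr (0 to 34.2, 90.9 to 157), Ptgs2 (0 to 7.66, 20.3 to 167) and Inhba (0 to 5.89, 10.1 to 37.2), and none passed the limma threshold. Summed theca, stroma and endothelium markers (7 of 13 listed) ranged from 3760 to 4838 in WT and from 3957 to 4678 in CKO, mostly Pecam1. Kdr (114 to 178 in WT, 0 to 64.7 in CKO) and Tie1 (446 to 703, 158 to 297) lay lower in every CKO library, with limma adjusted p of 0.174 and 0.142. Of 10 blood and immune markers 4 were listed, at summed levels of 1118 to 1938 in WT and 194 to 241 in CKO. That difference was mainly C1qb, a complement gene, which fell by 3.32 on the log2 scale (limma adjusted p = 0.0128). The part of these differences in the results below was not tested.

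At MII, 1 of the 70 members that could be tested passed the adjusted p threshold of 0.05. Fbxo40 was called higher in CKO, and no member lower, by limma on log2(normalized count + 1) with Benjamini-Hochberg adjustment over 20388 genes. Fbxo4 alone was too low to test, with 5.13 normalized counts in WT replicate 3 and 0 in the other 5 libraries. Over all genes tested the same rule called 0.520% higher and 0.991% lower in CKO, and 1 call among 70 is to be read against that background. At an unadjusted p under 0.05, 17 members were higher and 4 lower by limma, where 6.70% and 9.28% of all genes were. Outside the array, 9 of 55 were higher and 4 lower. The median difference over the 70 members was 0.29 on the log2 scale (46 above 0), beside -0.11 over all genes tested and 0.02 over the 5529 genes whose mean reached 1000 normalized counts. In 17 members every CKO library lay above every WT library, and in 3 every CKO library lay below, where 10.4% and 12.0% of all genes did so. Of the 17, 9 are array genes, near copies that are not separate observations. Outside the array, 8 of 55 lay higher and 3 lower, where 898 and 907 of the 5529 more abundant genes did so. The labels give 15 oocytes for every pool, the amount of RNA per oocyte is not given, and the values carry the scaling of the authors.

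**Figure D2:**
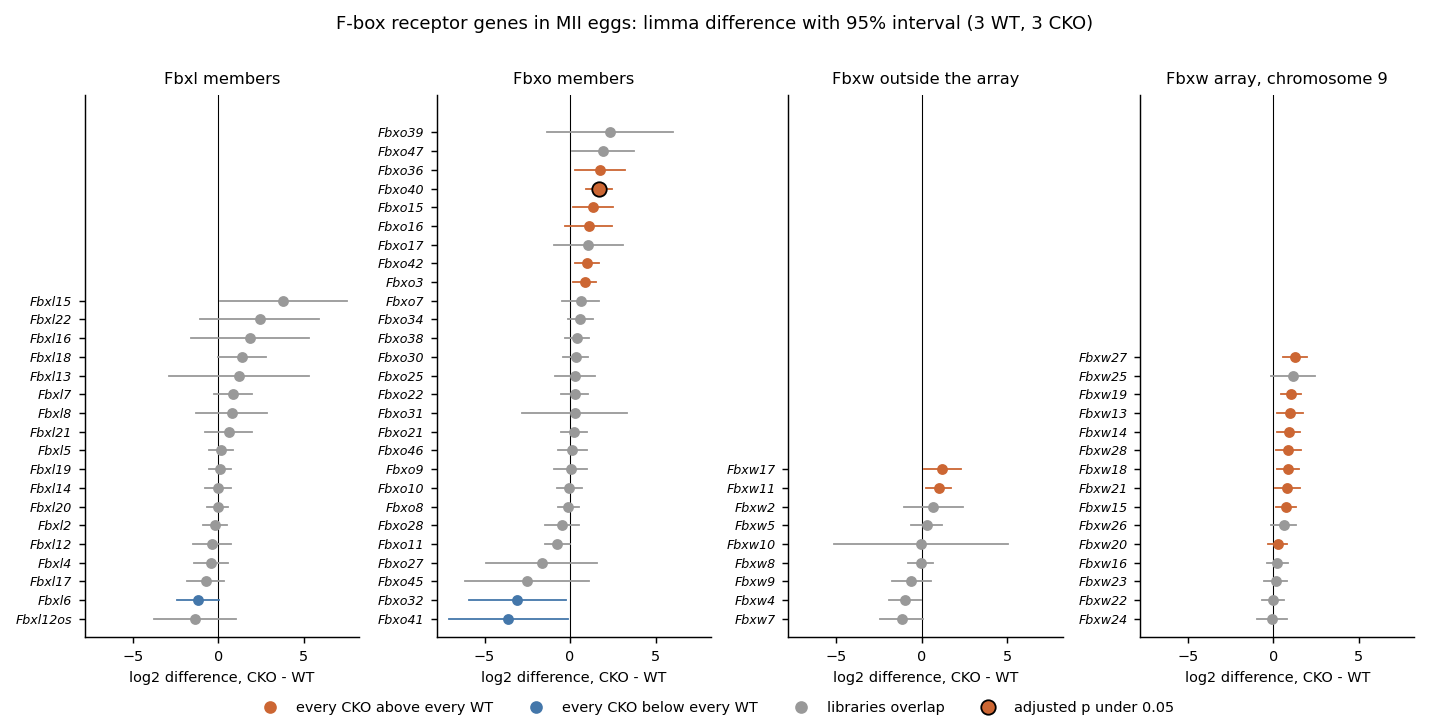
Difference between CKO and WT at MII on the log2(normalized count + 1) scale for the tested members except 1 that is not reported here, as the limma estimate with its 95% interval, from 3 libraries per genotype, in panels by class. Fbxo40 alone passed the adjusted threshold of 0.05, and in the array panel 13 of 15 estimates lie above 0.

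Fbxo40 encodes an F-box protein known from skeletal muscle, where it has been reported to target the insulin receptor substrate IRS1. It read 2568, 2339 and 1294 normalized counts in WT replicates 1, 2 and 3, and 6165, 7583 and 5651 in CKO replicates 2, 3 and 4. The lowest knockout was above the highest control by more than the whole range of the controls. The difference was 1.70 on the log2 scale (SE 0.34, limma adjusted p = 0.0429), with a 95% interval of 0.94 to 2.45. The mean was 2067 ± 679 in WT and the CKO mean was 6467 ± 1000 (both SD, n = 3), resting on 2524 to 4478 reads per library. Leaving out WT replicate 3 gave 1.39 (limma adjusted p = 0.0352). Leaving out any other single library left no gene of the table past the threshold, Fbxo40 included, and over the alternatives its limma adjusted p ranged from 0.00155 to 0.587. In the authors' deposited table its log2 fold change was 1.64 (adjusted p = 2.71e-04). Fbxo40 was not among the selected genes at GV.

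The authors' own MII test called more members than limma did. An adjusted p was given for 68 members in the authors' deposited table, of which 10 were under 0.05 and higher in CKO and 0 were under 0.05 and lower. That table called 4.60% of its 16042 genes higher and 6.94% lower. The 10 were Fbxo40, Fbxo42, Fbxo3, Fbxo36 and Fbxl15, and from the array Fbxw19, Fbxw27, Fbxw13, Fbxw18 and Fbxw15. The limma adjusted p of the 9 other than Fbxo40 ranged from 0.0817 to 0.304, so these calls depend on the test.

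Among the Fbxo class, Fbxo42, which has been reported to act on p53, was the most abundant member outside the array. It read 53853, 47182 and 33853 normalized counts in WT and 90981, 106686 and 70215 in CKO. The genotypes did not overlap, and the difference was 0.995 (SE 0.32, limma adjusted p = 0.160). Fbxo3, which acts on another F-box protein, FBXL2, read 2136, 2102 and 1719 in WT and 2873, 3861 and 4095 in CKO. Its difference was 0.85 (SE 0.29, limma adjusted p = 0.192), again with no overlap. Fbxo36 read 86.6, 87.3 and 45.6 in WT and 240, 215 and 266 in CKO, a difference of 1.75 (SE 0.65, limma adjusted p = 0.225). These counts rest on 85 to 193 reads per library, and Fbxo36 overlaps Trip12, which is on the other strand, so its reads are uncertain.

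Other Fbxo genes spread in both directions. Fbxo15, an embryonic stem cell gene controlled by OCT4 and SOX2, read 151, 290 and 424 in WT and 687, 463 and 927 in CKO at MII. Every knockout was above every control, by 1.33 (SE 0.52, limma adjusted p = 0.253). Fbxo47, known for its part in chromosome synapsis during male meiosis, read 115, 322 and 45.6 in WT and 657, 684 and 212 in CKO, and CKO replicate 4 lay below WT replicate 2. Fbxo34, reported to act in the resumption of oocyte meiosis, read 7722, 8682 and 14873 in WT and 16794, 11421 and 18379 in CKO, where WT replicate 3 lay above CKO replicate 3. Fbxo16 read 194, 255 and 72.8 in WT and 284, 344 and 362 in CKO, with no overlap and a limma adjusted p of 0.413. Fbxo11, which targets the repressor BCL6, was on the lower side in CKO, at 7072, 9504 and 9948 in WT against 3760, 4841 and 7657. CKO replicate 4 overlapped the controls there, and the difference was -0.75 (SE 0.33, limma adjusted p = 0.301). In all, 6 of the 27 tested Fbxo genes lay higher in every CKO library and 2 lower, beside 10.4% and 12.0% of all genes, and the class median was 0.29.

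Several Fbxo genes with known roles overlapped between the genotypes. Fbxo30, reported to target the spindle motor KIF11, read 38117, 32187 and 19838 in WT and 31933, 46660 and 32592 in CKO. Fbxo38, reported to target the immune receptor PD-1, read 36953, 25617 and 19951 in WT and 35530, 40994 and 28812 in CKO. The 95% intervals of these differences ran from -0.41 to 1.08 for Fbxo30 and from -0.32 to 1.09 for Fbxo38, so neither excludes a doubling. Fbxo7, a gene of familial parkinsonism, read 2563, 2586 and 726 in WT and 2866, 2360 and 2590 in CKO, and only WT replicate 3 stood low. Fbxo22, which acts on the histone demethylase KDM4A, read 1421, 1287 and 868 in WT and 1170, 1800 and 1332 in CKO. Fbxo45, which works with the ligase MYCBP2 rather than with CUL1, was low, at 28.9, 36.5 and 206 in WT and 0, 30.4 and 38.6 in CKO. The 2 Fbxo genes that lay lower in every CKO library were at few counts. Fbxo41 read 48.3, 25.1 and 29.7 in WT and 0, 0 and 20.7 in CKO, and Fbxo32 is described with the GV values.

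**Figure D3:**
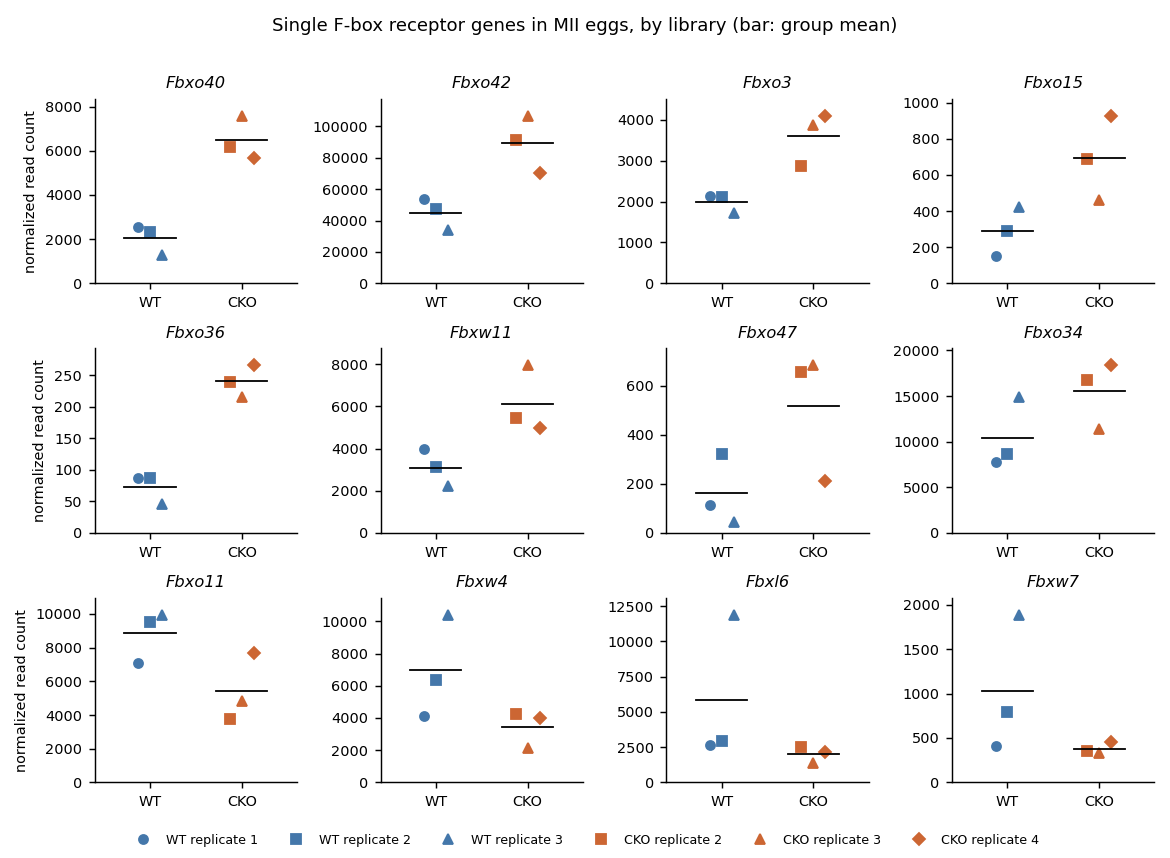
Normalized read counts at MII of 12 single F-box genes outside the array, one point per library with the replicate number as the marker and the group mean as a bar, on axes that start at 0. Fbxo40, Fbxo42, Fbxo3, Fbxo15, Fbxo36 and Fbxw11 show no overlap between genotypes, while WT replicate 3 stands above the other controls in Fbxl6, Fbxw4 and Fbxw7.

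The Fbxl class showed no common direction. None of the 19 tested Fbxl genes passed the limma threshold, none lay higher in every CKO library, 1 lay lower, and the median difference was 0.11. At an unadjusted p under 0.05 by limma, 1 Fbxl gene was higher and 0 were lower, no more than the 6.70% and 9.28% of all genes. The lower one was Fbxl6, at 2676, 2937 and 11879 in WT and 2531, 1355 and 2190 in CKO. WT replicate 3 stood at 4.23 times the mean of the other controls there, and without it the difference moved from -1.21 to -0.52. Fbxl18 read 1011, 689 and 200 in WT and 2331, 1334 and 815 in CKO, with overlap. Fbxl5, the iron-sensing receptor for IRP2, read 2527, 2923 and 3551 in WT and 2800, 2734 and 4554 in CKO. Its difference was 0.14, with a 95% interval of -0.58 to 0.85. Fbxl17, which checks the pairing of BTB domain proteins, read 651, 501 and 1094 in WT and 390, 284 and 672 in CKO, with overlap.

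Outside the array, 2 of 9 Fbxw genes lay higher in every CKO library and none lower, beside 10.4% and 12.0% of all genes. Their median was -0.04, and 0.33 with limma-voom on the recovered reads. One was Fbxw11, a β-TrCP protein that binds phosphorylated degrons of β-catenin, of WEE1 and of EMI1. It read 3969, 3116 and 2208 in WT and 5471, 7950 and 4979 in CKO, a difference of 0.996 (SE 0.33, limma adjusted p = 0.172). The other was Fbxw17, at 337, 287 and 160 in WT and 796, 441 and 547 in CKO. Fbxw7, which targets cyclin E, MYC and NOTCH1, read 411, 794 and 1885 in WT and 355, 332 and 452 in CKO. The genotypes overlapped, and the difference of -1.17 became -0.60 without WT replicate 3. Fbxw4, altered in the dactylaplasia limb mutants, read 4140, 6355 and 10406 in WT and 4253, 2114 and 3997 in CKO, with CKO replicate 2 above WT replicate 1.

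The array was the most abundant set of members and lay mostly on the higher side in CKO eggs at MII. In 9 of its 15 genes every CKO library was above every WT library, in none below, where 10.4% and 12.0% of all genes did so. Of the 5529 genes whose mean reached 1000 normalized counts, 898 lay higher in every CKO library and 907 lower. The median difference was 0.82 on the log2 scale, beside 0.27 over the 55 other tested members. No array gene passed the limma threshold over all genes, 8 were higher and 0 lower at an unadjusted p under 0.05 by limma (6.70% and 9.28% of all genes), and 5 were higher in the authors' deposited table. Without WT replicate 3 the median was 0.52. With Fbxw17 added, as in the list by name, 10 of 16 lay higher in every CKO library, with a median of 0.84. Because the genes share sequence, reads and position, their 15 values are not separate observations.

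Fbxw19 was even among its controls. It read 19489, 18854 and 17926 normalized counts in WT and 39573, 33722 and 42464 in CKO. The difference was 1.03 (SE 0.26, limma adjusted p = 0.0854), and WT replicate 3 did not stand out from the other controls. In the authors' deposited table its adjusted p was 1.46e-04. Fbxw27, at the far end of the array, read 2436, 2152 and 3508 in WT and 6804, 4988 and 7672 in CKO. The difference was 1.27 (SE 0.31, limma adjusted p = 0.0817). Without WT replicate 3 it was 1.48 (limma adjusted p = 0.0487, range 0.00157 to 0.587 over the alternatives), and in that setting Fbxw27 and Fbxo40 were the members called, where 1.30% of all genes were called higher and 3.06% lower.

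Fbxw14 and Fbxw28, the nearest copies, gave nearly the same values. Fbxw14 read 18159, 16865 and 25143 in WT and 37234, 28638 and 46625 in CKO, and Fbxw28 read 17260, 16938 and 29705 in WT and 38162, 30074 and 46830 in CKO. In both, the order of the libraries was the same and WT replicate 3 was the highest control, next below CKO replicate 3. Their sum, which does not depend on how reads were split between them, was 35420, 33804 and 54847 in WT and 75396, 58712 and 93455 in CKO. The ratio of the means of that sum was 1.83, with no overlap. By limma the differences were 0.90 for Fbxw14 (SE 0.31, adjusted p = 0.185) and 0.88 for Fbxw28 (SE 0.33, adjusted p = 0.225).

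Fbxw18, Fbxw15, Fbxw21 and Fbxw13 also showed no overlap. Fbxw18 read 25763, 25682 and 17292 in WT and 46582, 36097 and 40914 in CKO, and Fbxw15 read 20777, 20415 and 14997 in WT and 29258, 31064 and 31686 in CKO. Fbxw21 read 17450, 17334 and 9460 in WT and 27957, 26142 and 21326 in CKO. In these 3 genes WT replicate 3 was the lowest control, the opposite of Fbxw14 and Fbxw28. Fbxw13, among the least abundant of the array, read 545, 843 and 715 in WT and 1388, 1263 and 1368 in CKO. The differences of these 4 genes ran from 0.73 to 0.95, with limma adjusted p of 0.180 to 0.248. Fbxw20 lay higher in every CKO library by a small step, at 15948, 15638 and 14483 in WT and 20048, 16156 and 18507 in CKO, a difference of 0.24.

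The remaining array genes overlapped between genotypes. Fbxw24, the most abundant member of all, read 221438, 189286 and 102243 in WT and 170702, 131063 and 160754 in CKO. Its difference was -0.08 (95% interval -0.94 to 0.77), and all 3 knockouts lay between WT replicate 3 and WT replicate 2. Fbxw25 read 2775, 2223 and 502 in WT and 3632, 3466 and 2581 in CKO, and Fbxw26 read 23340, 20416 and 12156 in WT and 31384, 28028 and 22873 in CKO. In Fbxw25 and Fbxw26 only WT replicate 1 reached into the range of the knockouts. Fbxw16, Fbxw22 and the pseudogene Fbxw23 differed by 0.22, -0.03 and 0.14.

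WT replicate 3 split the array. Relative to the mean of the other controls it was high for Fbxw28 (1.74 times), Fbxw27 (1.53), Fbxw22 (1.48) and Fbxw14 (1.44), level for Fbxw13 (1.03), and below 1 for the other 10, down to 0.498 for Fbxw24 and 0.201 for Fbxw25. Fbxw14, Fbxw28 and Fbxw22, which moved together in it, are the trio with the highest coding identity (91.9% to 99.1%). Of the members that the library raised, Fbxw27 is closest to Fbxw25, at 89.9%, which the library lowered.

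The summed array weighs the genes by their counts. The 15 genes together read 420176, 382150 and 283238 normalized counts in WT and 497168, 404240 and 481214 in CKO, a ratio of means of 1.27 with overlap between WT replicate 1 and CKO replicate 3. They took 0.442% to 0.766% of all reads in WT and 0.692% to 0.899% in CKO. Fbxw24 supplied much of that sum. Without Fbxw24 the other 14 read 198738, 192864 and 180995 in WT and 326466, 273177 and 320459 in CKO, a ratio of 1.61 with no overlap. Fbxw24, which overlapped between genotypes, was taken out after its values were seen, so the larger ratio follows in part from that choice. No gene was taken out of the next sum. The 56 members outside the array summed to 219908, 197825 and 192192 in WT and 262387, 299572 and 243537 in CKO, a ratio of 1.32, also with no overlap. Most of that rise lay in Fbxo42, the most abundant of them, so the ratio does not describe the others in general.

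**Figure D4:**
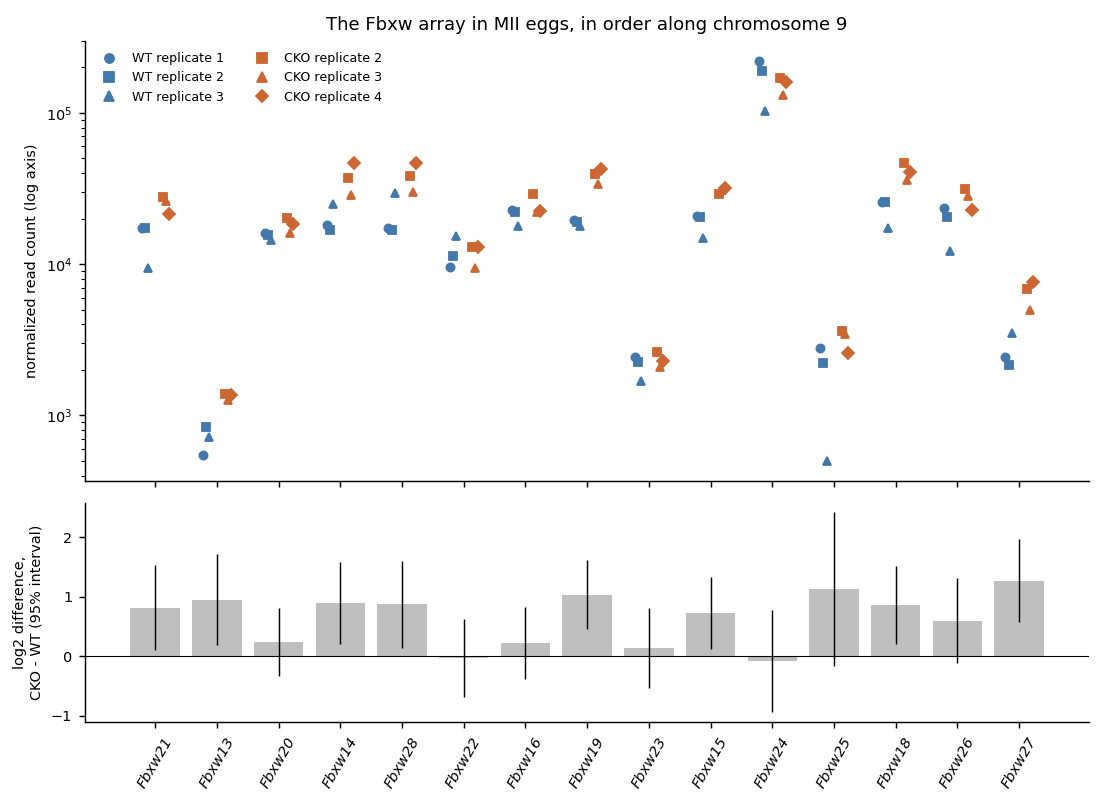
The 15 array genes in chromosomal order in MII eggs: above, normalized read counts per library on a log axis, and below, the limma log2 difference with its 95% interval. WT replicate 3 (blue triangles) is the highest control in Fbxw14, Fbxw28, Fbxw22 and Fbxw27 and the lowest in Fbxw24, Fbxw25 and Fbxw26.

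Levels between genes were compared per kilobase of exon, with lengths from GENCODE M21, since the annotation used by the authors is not given in the sources used here. In WT eggs Fbxw24 stood at 114912 ± 41444 normalized counts per kilobase (SD, n = 3). Fbxw18 followed at 15084 ± 3205, then Fbxw15 at 12528 ± 2166, Fbxw16 at 11609 ± 1410, Fbxw28 at 10918 ± 3731, Fbxw26 at 10218 ± 3180 and Fbxw14 at 9487 ± 2106. Fbxw24 was thus several times above the next gene, whereas neighbours among these others differed by less than the larger of their SDs. The first member outside the array was Fbxo42, in place 8, at 7577 ± 1716 per kilobase, and the next were Fbxo30 in place 12 at 5782 ± 1794 and Fbxo38 in place 14 at 4855 ± 1528. Fbxo40, the member called higher by limma, stood in place 35, at 375 ± 123 per kilobase. At the low end Fbxl15 and Fbxl16 were at 0 in every WT library.

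At GV the authors' deposited table held 6 members, all with an adjusted p under 0.05 and over 2-fold, 3 higher and 3 lower in CKO. The adjusted p-values of that table imply 21462 tested genes, of which 4.96% met the same conditions as higher and 7.89% as lower. How many members were tested at GV is not known here, so the counts have no denominator. With 3 libraries against 3, an exact permutation test of one gene cannot go below a two-sided p of 0.10, which the 5 members without overlap reach. Since the 6 were listed for a difference between genotypes, that lack of overlap follows largely from the selection and adds no support. Markers of other cells were selected as well: Kdr, Tie1, Pdgfra and Col1a2, of the 13 for theca, stroma and endothelium, and C1qb were lower in CKO, Cd68 was higher, and none of the 16 cumulus and granulosa markers was selected. Their part in the GV values was not tested.

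Fbxo15 had the highest counts of the 6. It read 515, 763 and 348 normalized counts in WT replicates 1, 2 and 4 and 2373, 1693 and 2333 in CKO replicates 1, 2 and 4. Every knockout was more than 2 times the highest control, and in the authors' deposited table the log2 fold change was 1.98 (adjusted p = 2.28e-08). Fbxo15 thus lay higher in every CKO library at both stages, though the MII difference missed the limma threshold. It overlaps Timm21 on the other strand. Fbxo33, reported to target the RNA-binding protein YB-1, read 1735, 1098 and 1165 in WT and 491, 493 and 716 in CKO. The highest knockout was well below the lowest control, and in the authors' deposited table the log2 fold change was -1.23 (adjusted p = 3.17e-04).

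Fbxo32 encodes atrogin-1, a receptor that rises in wasting muscle. At GV it read 88.0, 96.9 and 119 in WT and 227, 367 and 341 in CKO, with no overlap. In the authors' deposited table the log2 fold change was 1.62 (adjusted p = 0.00111). At MII it was nearly absent, at 21.2, 10.8 and 7.69 in WT and 2.75, 0 and 0 in CKO. Those values rest on 36, 18 and 15 reads in WT and 2, 0 and 0 in CKO, whose libraries were shallower. The MII difference of -3.08 had an SE of 1.27 and a limma adjusted p of 0.274.

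The other GV members were absent from one genotype. Fbxl15, which targets the BMP pathway ligase SMURF1, read 34.0, 38.2 and 112 in WT and 0 in all 3 CKO libraries, at least 23.8-fold lower against a floor of 3 reads per library. In the authors' deposited table its adjusted p was 2.36e-05. At MII the order was the other way round, with 0 in all 3 WT libraries and 57.8, 0 and 44.1 in CKO, which the limma fit did not call (adjusted p = 0.304) and the authors' deposited table did (adjusted p = 0.0372). Fbxl15 overlaps Cuedc2, on the other strand, so reads of the 2 genes may be mixed. Fbxo48 read 39.2, 10.9 and 18.6 in WT and 0 in CKO at GV, at least 8.88-fold lower, from 45, 8 and 15 reads. Fbxl16 read 0 in all 3 WT libraries and 30.7, 147 and 0 in CKO, at least 17.0-fold higher by the means, although CKO replicate 4 was at 0 like the controls. At MII Fbxl16 had counts in CKO replicate 2 alone.

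**Figure D5:**
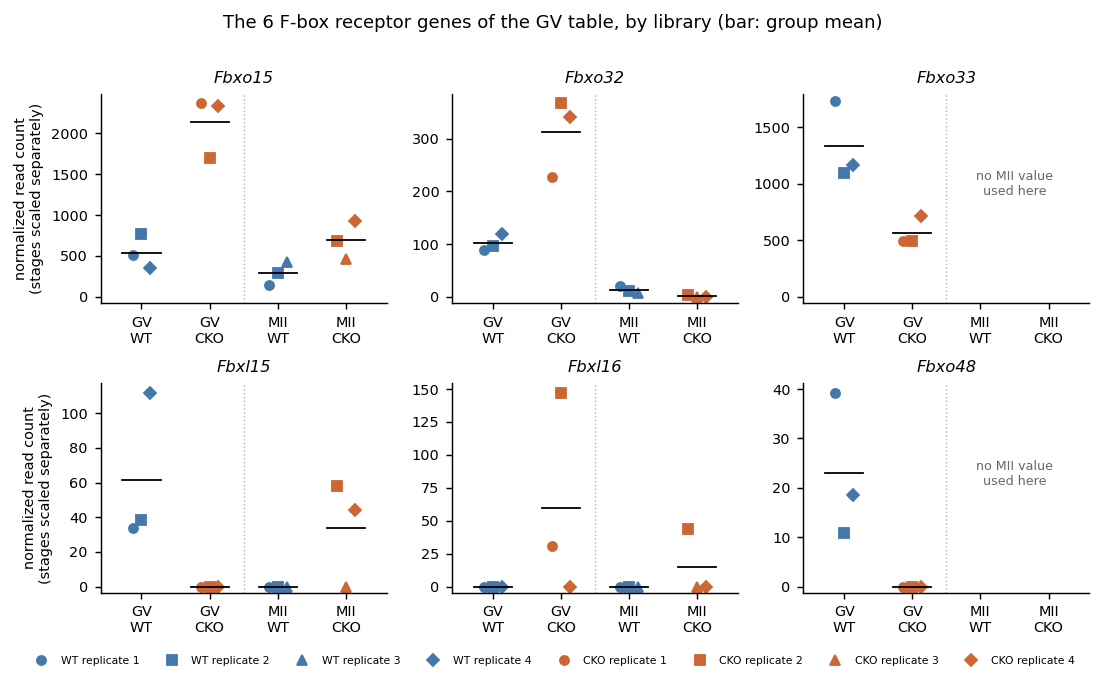
Normalized read counts of the 6 members of the GV table in GV oocytes and, where listed, MII eggs, one point per library with the replicate number as the marker and the group mean as a bar. Counts were scaled separately at the 2 stages, so heights compare genotypes within a stage. Fbxo32 is higher in every CKO library at GV and lower at MII, where no library exceeds 21.2.

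The partners of the F-box proteins gave few calls. Of the 18 measured SCF core and ubiquitin-conjugating genes, 0 were called in either direction by limma at MII, with a median of -0.12, and none was selected at GV. At an unadjusted p under 0.05, 0 were higher and 1 was lower by limma, beside 6.70% and 9.28% of all genes. The lower one was the conjugating enzyme gene Cdc34, at 1186, 1203 and 4312 in WT and 556, 203 and 742 in CKO (difference -2.06, limma adjusted p = 0.140). The adaptor gene Skp1a read 31821, 31501 and 58428 in WT and 40278, 45369 and 57676 in CKO, and the scaffold gene Cul1 read 20824, 20377 and 28408 in WT and 16818, 16523 and 31691 in CKO. Both overlapped between genotypes. Without overlap were also Rnf7, a RING gene (difference 1.51, limma adjusted p = 0.344), and Cks2 (-1.23, limma adjusted p = 0.327). For Rnf7 the highest WT library, at 130.8, lay just below the lowest CKO library, at 131.7. Without WT replicate 3 the Cks2 difference was -0.52. In all, 1 of the 18 lay higher in every CKO library and 2 lower, beside 10.4% and 12.0% of all genes.

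Of 24 genes for CUL1 neddylation and receptor exchange, 1 was called higher and none lower at MII by limma, with a median of 0.03. At an unadjusted p under 0.05 by limma, 5 were higher and 4 lower, beside 6.70% and 9.28% of all genes. The gene called was Cops5, the catalytic subunit of the signalosome that removes NEDD8 from cullins, at 446, 485 and 596 in WT and 1904, 1486 and 2269 in CKO (difference 1.88, SE 0.35, limma adjusted p = 0.0340). Without WT replicate 3 it was 2.0. At GV Senp8, a NEDD8 protease, was selected as lower, with a WT mean of 7544 ± 782 and a CKO mean of 2786 ± 661 (both SD, n = 3), and in the authors' deposited table its adjusted p was 6.25e-11. At MII Senp8 read 881, 1314 and 3055 in WT and 337, 279 and 512 in CKO, with no overlap. That difference was -2.06 (limma adjusted p = 0.0819), and -1.56 without WT replicate 3. Cand1, which exchanges the receptors on CUL1, differed by 0.00 at MII.

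F-box genes that carry other names gave no limma call among 7 at MII, none at an unadjusted p under 0.05 either, and a median of 0.04. Skp2, the receptor for p27, fell at GV, from a WT mean of 651 ± 85.3 to a CKO mean of 261 ± 133 (both SD, n = 3), and in the authors' deposited table its adjusted p was 0.0170. At MII it read 157, 169 and 252 in WT and 66.1, 68.4 and 70.2 in CKO, with no overlap (difference -1.45, limma adjusted p = 0.324). Btrc, the other β-TrCP gene, read 18222, 13312 and 9151 in WT and 24623, 21017 and 14394 in CKO, with overlap.

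Of 26 measured genes for known SCF substrates, 1 was called higher and none lower at MII by limma, with a median of -0.19. At an unadjusted p under 0.05 by limma, 4 were higher and 5 lower, beside 6.70% and 9.28% of all genes. The gene called was Wee1, the inhibitory kinase of CDK1 and a β-TrCP substrate, at 2064, 1645 and 411 in WT and 8623, 12075 and 6862 in CKO (difference 3.0, SE 0.56, limma adjusted p = 0.0336). Without WT replicate 3, its lowest control, the difference was 2.28. Wee1 was also selected as higher at GV, with a WT mean of 2927 ± 1164 and a CKO mean of 9204 ± 2171 (both SD, n = 3), and in the authors' deposited table its adjusted p was 1.79e-07. The other substrates selected at GV were Myc, higher, and Notch1, Per2 and Snai1, lower. These are mRNA levels, and the abundance of the substrate proteins was not measured here.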

How the data were processed

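The members and lists were chosen with earlier results of these data known. The authors deposited, per gene and library, log10(normalized count + 1), with their log2 fold change, its standard error (both log2), a mean signal, a test score and p-values, raw and adjusted. Per the labels' protocols, libraries were standard Illumina ones from total RNA. For the aligner, genome build, annotation, counting tool and use of strand, the sources used here give nothing. By GENCODE M21, 36 members overlap another gene and 29 have one on the other strand, and their reads may be mixed.

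Values were turned back into normalized counts, and the whole reads behind them were recovered (100% of values whole within 0.05). These are normalized values, so the test at MII was limma 3.58.1 (R 4.3.3), with its trend option, on log2(normalized count + 1). Genotype was the only term, over 6 libraries. Genes with a mean under 1 were left out, 20388 were tested, and p-values were adjusted by Benjamini-Hochberg over all of them. Fold changes of low genes are understated on this scale, and where libraries lie at 0 they depend on the pseudocount. The procedure was tested on simulated data that held no outlying library like WT replicate 3 at MII. The changes it had to recover there were larger than most differences given here. At GV, no model was fitted to the selected genes. Floors are 3 reads per library, and intervals 95%; floors cover counting error only. Reads listed at GV (6850576 to 11606262 per library) belong to selected genes and are not the depth.

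Coding sequences were built from GENCODE M21 and aligned with Biopython 1.88 (match 1, mismatch -1, gap opening -3, extension -1). Members named with values were those called by limma, those of the GV table, then, up to 30 in all, those of smallest p whose mean reached 50 normalized counts, and genes of known role. Members outside that rule that are named with values (Fbxw16, Fbxw20, Fbxw22, Fbxw23, Fbxw24, Fbxo41, Fbxo4), and the genes named from the other lists, were chosen after their values were seen. The values of 1 member are not reported here; it is counted among the members.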

Additional observations from a re-analysis of the deposited data

Results flagged for a closer look

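Fbxo32 differed in opposite directions at the 2 stages, though only the GV difference passed a test. It was higher in every CKO library at GV, at 227, 367 and 341 normalized counts against 88.0, 96.9 and 119 in WT, and lower in every CKO library at MII, at 2.75, 0 and 0 against 21.2, 10.8 and 7.69. The log2 difference at MII was -3.08 (SE 1.27, limma adjusted p = 0.274), and the GV adjusted p in the authors' deposited table was 0.00111. The difference between the stages was not tested, since no model across genes could be fitted to the selected genes of the GV table, and the MII values rest on 2 reads in all 3 CKO libraries together.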

How the results depend on the processing

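The count of members called higher at MII by limma was 1 with all libraries. It was 0 with a pseudocount of 0.1, with no filter on low values, with library size alone and with limma-voom on the recovered reads. With array weights it was 12, and 1 member was called lower (Fbxo11). In that setting 1297 of all genes were called higher and 1893 lower. The weights were 0.198 for WT replicate 3 and 4.37 for WT replicate 2, so that fit leans on 1 control library. Leaving out one library in turn gave 0 to 2 members higher. The count with a mean of at least 10 and with reads thinned to equal size factors, the latter added after the data were seen, stayed at 1. With the replicate block the count was 0, as it was for all genes. The labels do not say what the replicate numbers mean, and they were not used as pairs in the main fit. Deviations of same-numbered libraries correlated at 0.03 and -0.13 at MII and at -0.01 to 0.02 at GV. With so few libraries these values cannot decide whether same-numbered libraries share a source. The difference of Fbxl5, 0.14, was -0.22 with the replicate block and -0.10 to 0.27 with one library left out. The cause was not tested. Of the 488 values of single members under alternatives at MII, 463 were counted as keeping their direction and their side of the threshold. Among the 463 is Fbxl16 without CKO replicate 2, where its difference of 1.83 became 0 and no direction was left. The 488 values belong to the 35 named members with a fitted value, many of them chosen for a small p at MII. Fbxo40 alone started past the threshold, and several settings called no gene at all, so this count does not measure how robust the results are. Depth limits the genes with few reads, and the CKO libraries were the shallower ones.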
